A study of Equus caballus with 19 samples.

Results

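Semaphorins, plexins and neuropilins are 31 of the 29196 gene names measured by RNA sequencing in equine tenocytes that were exposed to interleukin-1 beta (IL-1β). They were taken by name, as every gene whose symbol begins with SEMA or PLXN together with NRP1 and NRP2. The set has 20 semaphorins, 9 plexins and 2 neuropilins. The cells were primary adult wild-type tenocytes from the superficial digital flexor tendon, the main weight-bearing flexor tendon of the equine limb, and each line came from 1 donor horse. All constructs were 3D gels of bovine type I collagen harvested at day 14. In the first batch, lines 1 to 5 were cultured as unstimulated controls and with 1 nM IL-1β, which gave 10 libraries. In the second batch, lines 6 to 8 were cultured unstimulated, under the same dose of IL-1β, or under IL-1β combined with 100 ng/ml of IL1Ra, the protein antagonist of the interleukin 1 receptor, for 9 libraries. Each condition therefore had 1 library per line, the control and treated gels of a line share a donor, and the cells had been passaged before they were seeded.

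Semaphorins are secreted or membrane-bound guidance cues, first known for repelling growing axons. They signal through plexins, transmembrane receptors whose cytoplasmic part switches off small GTPases of the R-Ras and Rap type and so alters adhesion and the cytoskeleton. Class 3 semaphorins are secreted, and most of them need a neuropilin as co-receptor beside an A-type plexin. Class 4 members bind mainly B-type plexins, class 6 members bind A-type plexins, and SEMA7A binds PLXNC1. The neuropilins also bind vascular endothelial growth factors. In adult connective tissue the family is known for guiding ingrowth of nerves and vessels and, in bone, for signals between osteoclasts and osteoblasts. All values are for whole genes.

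Values are normalised counts, in which differences in sequencing depth between the libraries of a batch have been divided out. They are not corrected for transcript length, so levels are compared between conditions and not between genes. A library of the first batch held between 43.4 and 49.2, and one of the second between 24.96 and 34.6, in units of 1e6 normalised counts, and the 31 genes took 0.112 to 0.217% of a library. Because each batch was normalised on its own, every test stayed within a batch. A gene was tested if it reached 10 normalised counts in at least 5 libraries of the first batch or 3 of the second. A gene was called changed at an adjusted p under 0.05 (limma, Benjamini-Hochberg over all genes tested) when its log2-fold change was also 1 or more in either direction. Fold changes are on the scale log2(normalised count + 1), which understates the change of genes with few counts. A second fit, here called the fit with the block, compared conditions within lines.

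The same 27 members were tested in each batch, namely all plexins, both neuropilins and 16 semaphorins. The other 4 were SEMA3D, SEMA3E, SEMA3G and SEMA5B. SEMA3E, a secreted ligand that can bind PLXND1 without a neuropilin, reached 10.9 normalised counts in the IL-1β library of line 1 and was under 10 in every other library. SEMA3D reached 26.9 and 10.7 in the control libraries of lines 4 and 5, 3.05 and 4.88 with IL-1β in the same lines, and 13.8, 14.9 and 8.68 in the control, IL-1β and IL-1β + IL1Ra libraries of line 6. SEMA3G did not exceed 4.22 and SEMA5B did not exceed 6.48 in any library, so their direction was not detectable at this depth.

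Cultures carried the transcripts of their label only in part. Of 10 tenocyte marker genes, 9 were in the tables used here, and tenomodulin (TNMD), a marker of mature tendon cells, was at 0 in all first-batch libraries and at most 1.00 in the second batch. The tenocyte markers summed to 1003410 to 1771340 normalised counts in first-batch controls and 425771 to 808552 with IL-1β, and 6 of the 8 tested were called lower, among them the tendon transcription factor SCX, which was at 822 to 2110 in controls and 9.69 to 205 with IL-1β. Summed endothelial markers (8 genes) ranged from 640 to 1694 in controls and from 61.7 to 200.2 with IL-1β. Of the 3 tested, only ERG was called lower, and 1 was called higher with the block only. CDH5, TIE1 and EMCN were at most 3.49. Summed mural markers (4 of 5 listed genes) ranged from 1494 to 3789 in controls and from 529 to 1227 with IL-1β. Of these, 3 were called lower and 1 was called higher with the block only. Summed Schwann or nerve markers (6 genes) ranged from 6509 to 11684 and from 1969 to 3399, with TUBB3 called lower. Summed leukocyte markers (8 genes) ranged from 60.2 to 2076 and from 311 to 3713, with CD68 called higher, PTPRC at most 3.64 and CD3E and CD79A at 0. Over all genes tested in that batch, 4.91% were called higher and 7.9% lower, or 6% and 10.2% with the block. In the second batch, the tenocyte markers summed to 239549 to 834301 in controls, 307487 to 465489 with IL-1β and 134171 to 777131 with IL-1β + IL1Ra. In the same order, the endothelial sums were 610.3 to 1102, 112 to 130.2 and 229 to 353, the mural sums 774 to 3931, 382 to 1182 and 941 to 1078, and the Schwann or nerve sums 961 to 6951, 338 to 3230.0 and 611 to 3127. No marker was called in the second batch without the block. With the block, IL-1β against control gave 1 tenocyte, 1 endothelial and 1 mural marker called lower and 1 leukocyte marker called higher. Over all genes, 2.59% were called in each direction in that fit. The part of the marker sums in the results was not tested. In bulk samples, fewer cells of a type and less RNA per cell cannot be told apart.

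The first batch asked what 14 days of IL-1β did to the family, and 8 of the 27 tested members were called. SEMA5A, SEMA6D, SEMA3F and the receptor PLXNC1 were higher with IL-1β, and SEMA3B, SEMA4F, PLXNA2 and PLXNA4 were lower, in all 5 lines for each of the 8. The changes ran from −2.12 to 3.57 on the log2 scale. These 4 rises and 4 falls among 27 stand beside 4.91% of all 14719 tested genes called higher and 7.9% called lower. With the block, 4 members were called higher and 5 lower, beside 6% and 10.2% of all genes, and the addition was PLXNA3. The median log2-fold change over the 27 was −0.02, beside −0.0034 over all genes, and the median absolute change was 0.57, beside 0.34. The control and IL-1β values of 7 members did not overlap, beside 19.5% of all genes.

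**Figure D1:**
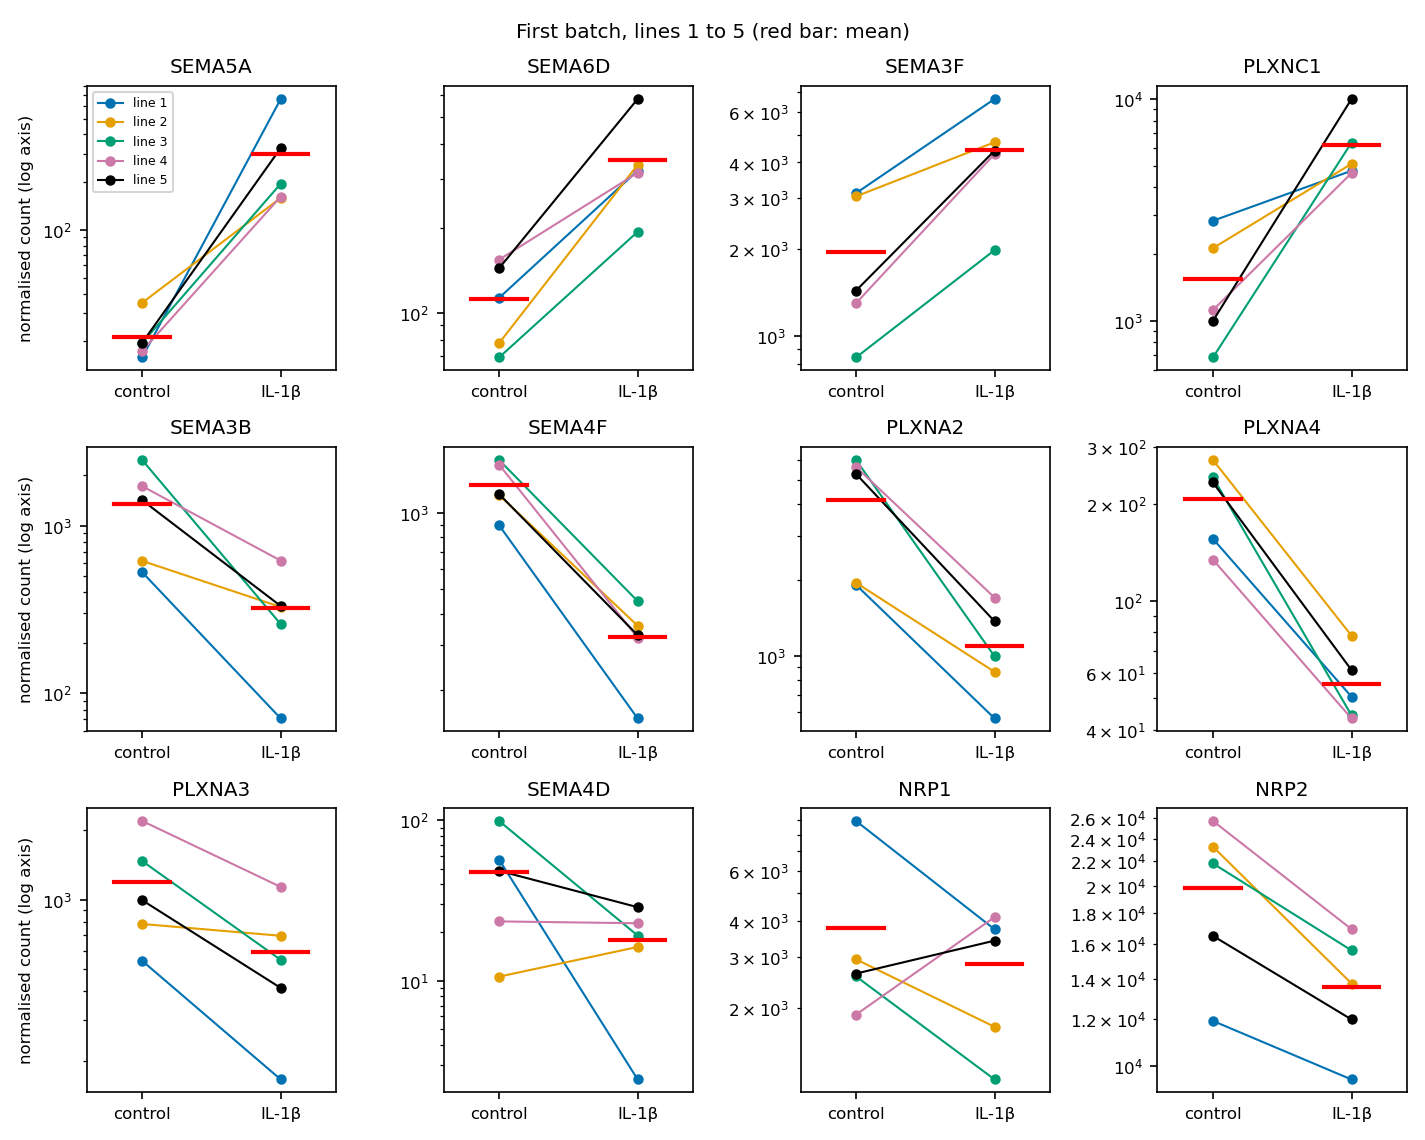
Normalised counts (log axis) of 12 members in the first batch, with 1 coloured line joining the control and IL-1β libraries of each of tenocyte lines 1 to 5 and a red bar at the mean of the 5. The upper row holds the 4 members called higher and the middle row the 4 called lower. The bottom row holds PLXNA3, SEMA4D, NRP1 and NRP2, which were not called without the block.

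Among the ligands, the largest change was that of SEMA5A, a membrane-bound semaphorin with thrombospondin repeats that can attract or repel axons. Its normalised counts in lines 1 to 5 were 15.9, 35.0, 19.6, 17.4 and 19.6 in controls and 665, 159, 196, 162 and 327 with IL-1β. The lowest IL-1β library was far above the highest control. The mean was 302 ± 214 (SD, n = 5) with IL-1β and 21.5 ± 7.69 (SD, n = 5) in controls, and the log2-fold change was 3.57 (SE 0.41, adjusted p = 2.61e-04, or 0.00133 with the block). SEMA6D, a class 6 membrane-bound ligand of PLXNA1 with a role in heart development, had 113, 77.7, 69.1, 155 and 144 in controls and 322, 337, 195, 316 and 580.4 with IL-1β. These ranges did not overlap either, although the lowest IL-1β value, in line 3, came close to the highest control, in line 4. The log2-fold change of SEMA6D was 1.62 (SE 0.32, adjusted p = 0.00461, or 0.00117 with the block).

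SEMA3B and SEMA3F, secreted class 3 ligands both described as tumour suppressors, moved in opposite directions. SEMA3F had 3127, 3049, 841, 1297 and 1434 in controls of lines 1 to 5 and 6648, 4703, 1985, 4280.4 and 4398 with IL-1β. Every line rose, but the ranges overlapped because lines 1 and 2 began higher than lines 3 to 5. Its log2-fold change was 1.26 (SE 0.41, adjusted p = 0.0424, or 0.00158 with the block). Without line 1, 2, 4 or 5 the adjusted p was 0.0528, 0.0589, 0.141 and 0.152, so that the unblocked call of SEMA3F was lost, while its log2-fold change stayed between 1.14 and 1.42 without any one line. SEMA3B had 529, 617, 2468, 1722 and 1421 in controls and 70.9, 328, 259, 619 and 332 with IL-1β. Here the control lines were ordered the other way, with lines 1 and 2 lowest, and IL-1β in line 4 lay above the controls of lines 1 and 2. The log2-fold change of SEMA3B was −2.12 (SE 0.59, adjusted p = 0.0218, or 0.00376 with the block), and the adjusted p was 0.0795 without line 3 and 0.0806 without line 5, with log2-fold changes of −2.42 to −1.84 without any one line.

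In a RefSeq gene table of another horse assembly than the one the counts were made on, SEMA3B and SEMA3F lie on the same chromosome with only 3 protein-coding genes between them, GNAI2, SLC38A3 and GNAT1. The log2 ratio of SEMA3F to SEMA3B within a library does not depend on how libraries are scaled. It was higher with IL-1β in 5 of 5 lines, by 3.38 ± 1.13 (SD, n = 5). GNAI2 and SLC38A3 were tested and not called, at 0.10 (SE 0.10, adjusted p = 0.504) and 0.19 (SE 0.42, adjusted p = 0.780). The SEMA3F to SEMA3B ratio was chosen after the values were seen. Its change in a line is that of SEMA3F minus that of SEMA3B, so it adds no separate evidence.

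SEMA4F, a membrane-bound class 4 semaphorin found at synapses, had 895, 1177, 1619.6, 1553 and 1188 in controls and 154, 358, 448, 322 and 329 with IL-1β. The highest IL-1β library, in line 3, lay well under the lowest control, in line 1, and the log2-fold change was −2.04 (SE 0.28, adjusted p = 5.95e-04, or 2.35e-04 with the block). SEMA4D, which is known from T cells and osteoclasts and signals through PLXNB1, had 56.9, 10.6, 99.0, 23.4 and 48.4 in controls and 2.43, 16.2, 19.1, 22.8 and 28.7 with IL-1β. It was lower in 4 of 5 lines and higher in line 2, with little difference in line 4. The log2-fold change of SEMA4D was −1.32 (SE 0.71, adjusted p = 0.193, or 0.162 with the block), and this member was not called. SEMA4C, a ligand of PLXNB2, was higher in 5 of 5 lines at 0.72 (SE 0.20, adjusted p = 0.0221), which passed the adjusted p and fell short of the fold. SEMA4A, SEMA4B and SEMA4G had log2-fold changes of −0.48, −0.26 and −0.02 and adjusted p from 0.129 to 0.961.

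The remaining ligands were not called. SEMA3C, a class 3 ligand that acts through both neuropilins, had 10579 to 27089 normalised counts in controls and 18241 to 31887 under IL-1β and changed by 0.33 (SE 0.24, adjusted p = 0.352). SEMA3A, the classic repellent of sensory axons, was at −0.02 (SE 1.00, adjusted p = 0.989) and was lower in 4 of 5 lines and higher in line 4. SEMA7A, which is anchored to the membrane by a lipid, was at 0.46 (SE 0.73, adjusted p = 0.676). SEMA6A and SEMA6B stayed under 40 normalised counts in the first batch, at −0.62 (adjusted p = 0.561) and −0.47 (adjusted p = 0.450). SEMA6C was higher in 5 of 5 lines without overlap, 851 to 1128 against 623 to 771, at 0.45 (SE 0.11, adjusted p = 0.0145), under the fold required.

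Of the receptors, PLXNC1 was the only plexin called higher in the first batch, in either fit. Its normalised counts were 2826, 2126, 683, 1117 and 999 in controls of lines 1 to 5 and 4752, 5108, 6365, 4639 and 10019 with IL-1β. All 5 IL-1β libraries exceeded all 5 controls, and the mean was 6177 ± 2255 against 1550.0 ± 895 (SD, n = 5 each). The log2-fold change was 2.12 (SE 0.38, adjusted p = 0.00252, or 0.00671 with the block). The difference was smallest in lines 1 and 2, whose controls were highest. Its ligand SEMA7A had 409.8, 745, 97.0, 114 and 212 in controls and 1088, 627, 111, 142 and 335 with IL-1β, higher in 4 of 5 lines and without a call.

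Of the 4 A-type plexins, the signalling partners of neuropilins and the receptors of class 6 ligands, PLXNA2 and PLXNA4 were called lower and PLXNA3 was called lower with the block. PLXNA2 had 1915, 1952, 6007, 5634 and 5288 in controls and 563, 863, 994, 1703 and 1370.5 with IL-1β, and the ranges did not overlap. Its log2-fold change was −1.84 (SE 0.41, adjusted p = 0.00811, or 7.30e-04 with the block). PLXNA4 had 156, 274, 242, 135 and 234 in controls and 50.6, 78.2, 44.3, 43.3 and 61.2 with IL-1β, with every IL-1β library under every control, at −1.87 (SE 0.27, adjusted p = 8.28e-04, or 6.51e-04 with the block). PLXNA3 had 543, 784, 1469.6, 2192 and 994 in controls and 166, 697, 548, 1135 and 414 with IL-1β. It was lower in every line, but controls differed up to 4.03-fold between lines and the groups overlapped, so that its −1.10 (SE 0.51, adjusted p = 0.133, or 0.00758 with the block) was called only within lines. PLXNA1 ranged from 3902 to 4755 in controls and from 3800.0 to 5089 with IL-1β, at −0.01 (SE 0.10, adjusted p = 0.978), the smallest absolute change of the 27.

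No B-type plexin and not PLXND1 was called. PLXNB1, the receptor of SEMA4D, was higher in 5 of 5 lines at 0.39 (SE 0.12, adjusted p = 0.0372), short of the fold. PLXNB2, the receptor of SEMA4C, was at 0.01 (SE 0.14, adjusted p = 0.979). PLXNB3, a receptor of SEMA5A, stayed within 43.9 to 106 in controls and 15.4 to 56.1 with IL-1β, at −0.91 (SE 0.39, adjusted p = 0.111). PLXND1, known from vessel patterning, was at 0.57 (SE 0.22, adjusted p = 0.0762, or 0.0476 with the block). The log2 ratio of PLXNC1 to PLXNA2 within a library was higher with IL-1β in 5 of 5 lines, by 3.96 ± 1.55 (SD, n = 5). It was also chosen after the values were seen and follows from the changes of the 2 genes given above.

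The neuropilins were not called. NRP1, which binds SEMA3A and VEGFA, had 8937, 2949.6, 2572, 1893 and 2631 in controls and 3749, 1717, 1126, 4136 and 3425 with IL-1β. It was lower in lines 1 to 3 and higher in lines 4 and 5, at −0.34 (SE 0.46, adjusted p = 0.623, or 0.480 with the block). NRP2, the preferred co-receptor of SEMA3F, had 11891, 23279.7, 21823, 25707 and 16505 in controls and 9488, 13736, 15605, 16934 and 11958 with IL-1β. It was lower in each of the 5 lines by a similar amount, and the change of −0.53 (SE 0.23, adjusted p = 0.109, or 0.00341 with the block) passed the adjusted p within lines and remained under the fold required.

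**Figure D2:**
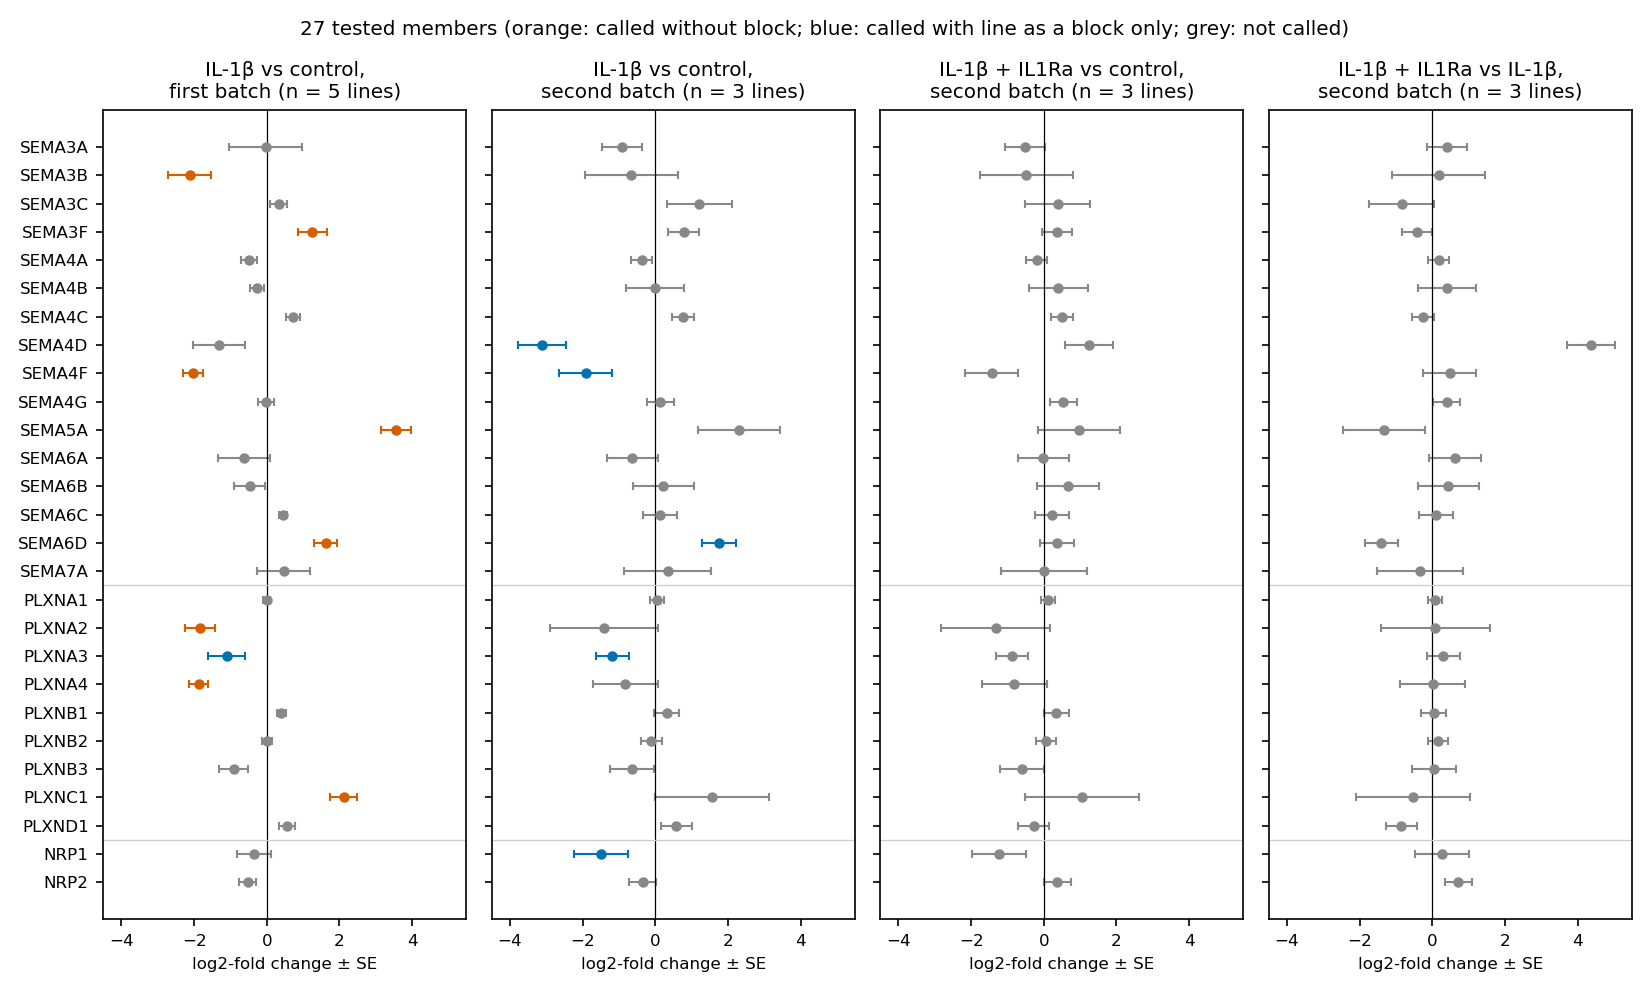
Log2-fold changes (points) with standard errors (bars) of the 27 tested members in the 4 comparisons, with semaphorins above, plexins in the middle and neuropilins at the bottom. Orange points were called without the block, blue points only with it, and grey points in neither fit. SEMA5A is farthest right in the first batch at 3.57, and SEMA4D is farthest left with IL-1β and farthest right for IL-1β + IL1Ra against IL-1β in the second batch, at −3.12 and 4.37.

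The second batch repeated the IL-1β comparison in lines 6 to 8. SEMA4D, SEMA4F, PLXNA3 and NRP1 were lower with IL-1β and SEMA6D was higher, each in 3 of 3 lines, and these 5 were called only when conditions were compared within lines. Without the block no member was called by limma, beside 0.269% of all 16705 tested genes called higher and 0.0718% called lower, and 5 of the 27 members had an unadjusted p under 0.05, beside 1907 of all genes. With the block, 1 member was called higher and 4 lower, beside 2.59% of all genes in each direction. Leaving out line 6 gave 1 member called without the block, SEMA4D, and leaving out line 7 or 8 gave 0. The groups of 8 members did not overlap, beside 16.4% of all genes. The median log2-fold change was −0.0039 over the members and −0.0084 over all genes, with medians of the absolute change of 0.65 and 0.33.

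Line 6 differed from lines 7 and 8 in the absence of IL-1β. In the controls, 13 and 14 of the 27 members differed over 2-fold between line 6 and lines 7 and 8, against 8 members between lines 7 and 8, and over all tested genes these shares were 22.9, 29.1 and 14.3%. PLXNC1 was at 51.1, 1245 and 1471 in the controls of lines 6, 7 and 8, PLXNA2 at 3696, 508 and 404 and SEMA3C at 25594, 4330.2 and 2464. In the first batch 3 to 12 members differed over 2-fold between the controls of a pair of lines, beside 6.27 to 21.0% of all genes. Such differences enter the error of the fit without the block and leave that of the fit with it.

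**Figure D3:**
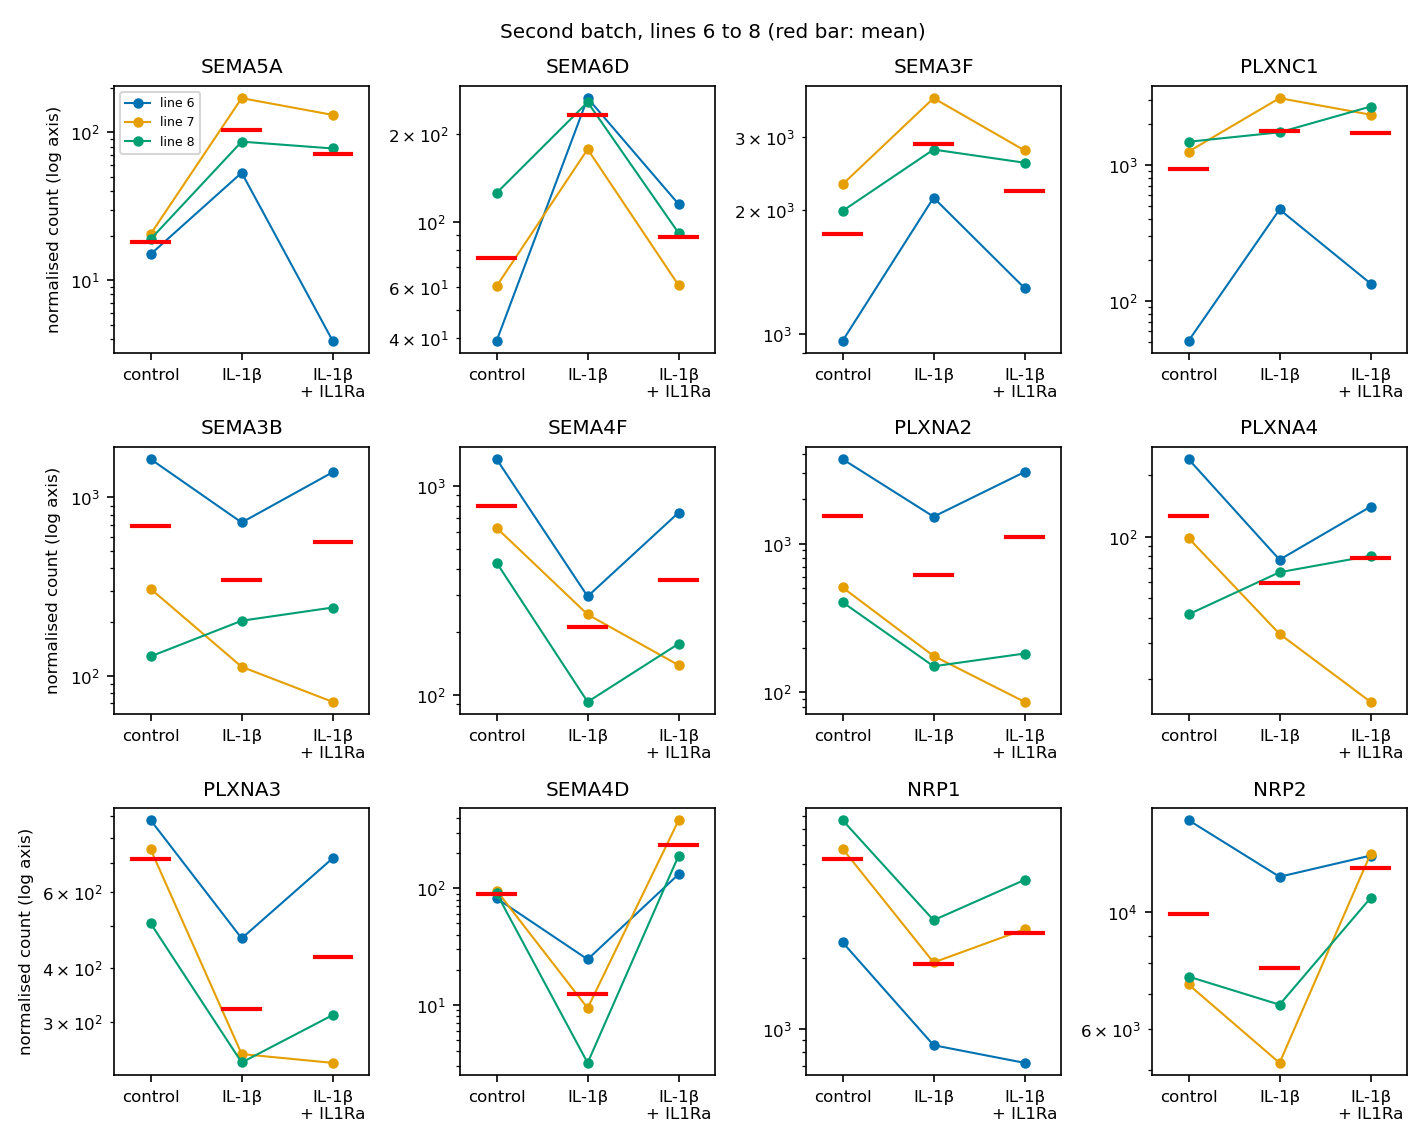
Normalised counts (log axis) of the same 12 members in the second batch, with 1 coloured line for each of tenocyte lines 6 to 8 through the control, IL-1β and IL-1β + IL1Ra libraries and a red bar at the mean of the 3. In all 3 lines SEMA4D was lowest with IL-1β and highest with IL-1β + IL1Ra, and SEMA6D was highest with IL-1β.

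SEMA4D had 82.0, 95.5 and 90.4 normalised counts in the controls of lines 6, 7 and 8, 24.6, 9.39 and 3.19 with IL-1β and 132, 383 and 191 with IL-1β + IL1Ra. The 3 conditions did not overlap: every IL-1β library was under every control, and every library with IL1Ra was above every control. The change of SEMA4D with IL-1β was −3.12 (SE 0.67, adjusted p = 0.118, or 0.0345 with the block), and without line 6 it was −3.83 with an adjusted p of 0.0384. Leukocyte markers summed to 231 to 1272 in the controls, 676 to 3054 with IL-1β and 734 to 2052 with IL1Ra, while the general leukocyte gene PTPRC was at most 0.993, 6.46 and 1.07 and the T cell gene CD3E at most 0, 0 and 1.07. The 3 conditions overlapped in these sums, and their part in the result was not tested.

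SEMA6D had 39.2, 60.3 and 125 in controls, 265, 177 and 256 with IL-1β and 115, 60.7 and 91.5 with IL-1β + IL1Ra. The IL-1β libraries lay above all 6 others, and the change with IL-1β was 1.76 (SE 0.46, adjusted p = 0.181, or 0.0490 with the block). SEMA4F had 1342, 629 and 429 in controls, 296, 242 and 92.6 with IL-1β and 745, 139 and 176 with IL1Ra. Its IL-1β values lay under all controls at −1.92 (SE 0.74, adjusted p = 0.364, or 0.0337 with the block). PLXNA3 had 879, 752 and 508 in controls, 469, 253 and 242 with IL-1β and 718, 242 and 312 with IL1Ra. The change with IL-1β was −1.18 (SE 0.45, adjusted p = 0.363, or 0.0433 with the block), again without overlap.

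NRP1 had 2332, 5806 and 7666 in controls, 856, 1917 and 2892 with IL-1β and 721, 2648 and 4284 with IL-1β + IL1Ra. The groups overlapped because line 6 was the lowest in every condition, but within each line IL-1β was under the control, at −1.48 (SE 0.75, adjusted p = 0.504, or 0.0116 with the block). In the first batch NRP1 was lower in 3 of 5 lines, and the difference between batches was not tested. NRP2 had 14992, 7284 and 7542 in controls, 11691, 5163 and 6666 with IL-1β and 12831, 12925 and 10653 with IL-1β + IL1Ra. It was lower with IL-1β in 3 of 3 lines at −0.34 (SE 0.37, adjusted p = 0.833, or 0.504 with the block) and higher with IL1Ra than with IL-1β in 3 of 3.

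The other members called in the first batch were not called in the second, in either fit. SEMA5A had 15.0, 20.5 and 18.9 in controls and 53.3, 171 and 86.6 with IL-1β, without overlap and at 2.30 (SE 1.12, adjusted p = 0.488, or 0.147 with the block). PLXNC1 was higher in 3 of 3 lines, with 469, 3071 and 1725 with IL-1β, at 1.57 (SE 1.57, adjusted p = 0.817, or 0.116 with the block), and its difference was largest in line 6, where the control was lowest. SEMA3F had 962, 2301 and 1984 in controls and 2136, 3720.4 and 2794 with IL-1β, higher in 3 of 3 lines, at 0.78 (SE 0.42, adjusted p = 0.539, or 0.0437 with the block), under the fold required. PLXNA2 was lower in 3 of 3 lines, with 1518, 176 and 149.9 with IL-1β, at −1.41 (SE 1.496, adjusted p = 0.8285, or 0.0937 with the block). PLXNA4 had 239.9, 98.3 and 41.5 in controls and 76.9, 33.3 and 66.8 with IL-1β, lower in lines 6 and 7 and higher in line 8, at −0.83 (SE 0.89, adjusted p = 0.833, or 0.524 with the block). SEMA3B had 1638, 307 and 128 and 723, 112 and 204, with the same pattern over lines, at −0.65 (SE 1.27, adjusted p = 0.924, or 0.545 with the block), and the ratio of SEMA3F to SEMA3B was higher with IL-1β in 2 of 3 lines.

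All 8 members called in the first batch had the same sign of change in the second, which shares no library or line with it, and 6 of the 8 had that sign in all 3 lines. Of the 1829 genes called in the first batch and tested in both, 97.6% had the same sign and 78.1% had it in all 3 lines, so the members' shares were close to those of all called genes. Of the members that were called in neither fit of the second batch, SEMA4A, SEMA4C and PLXNB3 also had no overlap between control and IL-1β, at −0.37, 0.77 and −0.65. Among members called in neither fit of either batch, SEMA3C had the largest change in the second, at 1.22 (SE 0.90, adjusted p = 0.711). It had 2464 normalised counts in the control and 18847 with IL-1β in line 8, and 25594 and 23889 in line 6.

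The last comparisons asked how far constructs given IL-1β + IL1Ra differed from controls and from IL-1β alone. They share the 9 libraries of the second batch, so each comparison is given by its own values. Against controls, no member was called by limma in either fit, and 0 members had an unadjusted p under 0.05 without the block, beside 948 of the 16705 genes. With the block 5 members had such a p. NRP1, SEMA4F, PLXNA3 and PLXNA2 were lower than control in 3 of 3 lines, and SEMA4C was higher in 3 of 3. The number of all genes at that p was not counted with the block. Of all genes, 0.012% were called higher and 0% lower without the block, and 0.21% and 0.0419% with it. The 2 groups did not overlap for 1 member, SEMA4D, beside 11.8% of all genes. The log2-fold change of SEMA4D against control was 1.25 (SE 0.67, adjusted p = 0.967, or 0.458 with the block), higher in 3 of 3 lines. The median over the members was 0.11, beside 0.0095 over all genes, and the median absolute changes were 0.48 and 0.26.

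None of the other members given in full was called against control. With IL1Ra, NRP1 was at −1.22 (SE 0.75, adjusted p = 1.000, or 0.0808 with the block). SEMA4F was at −1.44 (adjusted p = 0.951, or 0.190 with the block) and PLXNA2 at −1.32 (adjusted p = 1.000, or 0.238). PLXNA3 was at −0.88 (adjusted p = 0.951, or 0.225 with the block). PLXNC1 was at 1.04 (adjusted p = 1.000, or 0.428 with the block) and SEMA3F at 0.36 (adjusted p = 1.000, or 0.427). In PLXNA2 the lines parted, with 3029.8, 86.4 and 183 in lines 6, 7 and 8, so that line 6 was near its control and line 7 was under its IL-1β library. PLXNC1 had 135, 2323 and 2664 and SEMA3F had 1290.5, 2779 and 2596 with IL1Ra. PLXNA4, at 140.2, 15.4 and 80.4, and SEMA3B, at 1384, 71.4 and 241, were each under their control in lines 6 and 7 and above it in line 8.

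Against IL-1β alone, the 2 members with an unadjusted p under 0.05 were SEMA4D and SEMA6D, beside 464 of the 16705 genes, and no member was called by limma in either fit. Without the block 0% of all genes were called in either direction, and with it 0.00599% were called higher and 0% lower. SEMA4D was higher with IL1Ra in 3 of 3 lines at 4.37 (SE 0.67, adjusted p = 0.6248, or 0.140 with the block), with an unadjusted p of 1.52e-04 in the same limma fit. It ranked 4 of 16705 genes by that p and 18 with the block, and over the alternatives of the fit its adjusted p ran from 0.0792 to 1.00. SEMA6D was lower with IL1Ra in 3 of 3 lines at −1.40 (SE 0.46, adjusted p = 1.000, or 0.394 with the block) and stood at 0.36 against control. The groups of SEMA4D, SEMA6D and PLXND1 did not overlap, beside 6.47% of all genes, and PLXND1 was at −0.85 (SE 0.43, adjusted p = 1.000).

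SEMA5A showed how unequal the lines were under IL1Ra. It had 3.87, 131 and 77.8 in lines 6, 7 and 8, so that line 6 was under its control of 15.0 while lines 7 and 8 stayed near their IL-1β values of 171 and 86.6. The change against IL-1β was −1.33 (SE 1.12, adjusted p = 1.000), and that against control was 0.96 (SE 1.12, adjusted p = 1.000). NRP2 was at 0.71 (SE 0.37, adjusted p = 1.000) against IL-1β and NRP1 at 0.26 (SE 0.75, adjusted p = 1.000). The median log2-fold change against IL-1β was 0.098 over the members and 0.0088 over all genes, and the median absolute changes were 0.40 and 0.25.

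**Figure D4:**
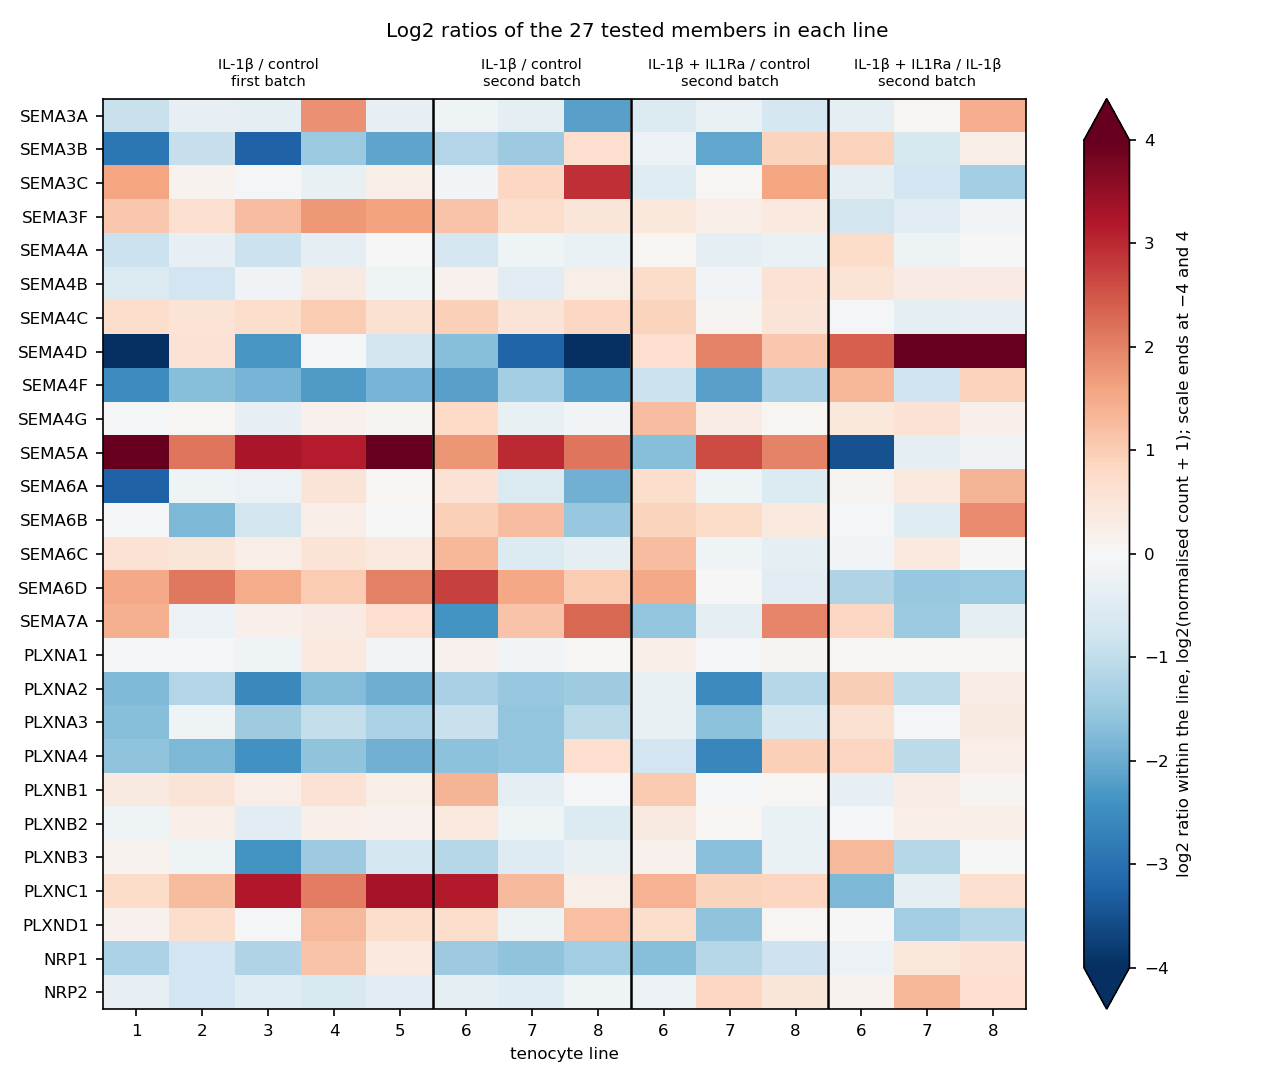
Log2 ratios of the 27 tested members (rows) within each tenocyte line (columns), for IL-1β over control in lines 1 to 5 and 6 to 8, and for IL-1β + IL1Ra over control and over IL-1β in lines 6 to 8. Red is higher and blue lower, with the colour scale ending at −4 and 4. SEMA5A, PLXNC1, SEMA6D, SEMA3F and SEMA4C were higher with IL-1β in all 8 lines, and SEMA4F, PLXNA2, PLXNA3 and NRP2 were lower in all 8. Some of these cells are pale, such as PLXNC1 in line 8 at 0.23.

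Members also varied between lines without any treatment. In the first-batch controls the highest line exceeded the lowest by 1.22-fold for PLXNA1 and 1.238-fold for SEMA6C, the most even of the 27. The ratio was 4.72 for NRP1, 7.68 for SEMA7A, 9.33 for SEMA4D and 20.8 for SEMA3A. SEMA3A had 799, 693, 38.5, 209.6 and 449.9 in controls and 434, 551, 29.2, 746 and 356 with IL-1β, so that line 3 was lowest in both conditions. In the second batch SEMA3A was lower with IL-1β in 3 of 3 lines, from 166, 249 and 587 to 146, 194 and 129, at −0.91 (SE 0.54, adjusted p = 0.602). SEMA7A was lower in line 6 and higher in lines 7 and 8 there, with 139, 267 and 32.9 in controls and 25.7, 587 and 165 with IL-1β.

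Genes that work with the family were counted from lists written from general knowledge. Beside their counts in the first batch stand 4.91% of all tested genes called higher and 7.9% called lower. Of the effectors and regulators of plexins, 31 of 34 were tested in the first batch, 1 was called higher and 2 lower, and the median log2-fold change was 0.016. RND3, a small GTPase that binds plexins, was higher at 1.66 (SE 0.17, adjusted p = 1.54e-04). DPYSL3, of the collapsin response mediator family downstream of SEMA3A, was lower at −1.55 (SE 0.25, adjusted p = 0.00167), and the kinase PAK1 was lower at −1.27 (SE 0.12, adjusted p = 8.67e-05). Other receptors, co-receptors and processing proteases had 14 of 17 genes tested, 0 called higher and 4 lower, with a median of −0.65. The 4 were the adhesion molecules L1CAM at −4.32 and NRCAM at −2.75, which take part in SEMA3A and SEMA3B receptor complexes, and the proteoglycans CSPG4 at −3.80 and SDC3 at −3.12. Each of the 4 was lower in 5 of 5 lines (adjusted p from 2.27e-04 to 0.0255). CSPG4 is also a pericyte gene. Of the 4 mural markers tested, 3 were called lower, while 1 was called higher with the block. A link between these markers and the change of CSPG4 was not tested. Of the VEGF ligands and receptors that share the neuropilins, 4 of 8 were tested and 0 were called.

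In the second batch none of these genes was called without the block in any comparison. With it, FYN, a kinase in SEMA3A signalling, was called higher with IL-1β at 1.03 (adjusted p = 0.0370), and CSPG4 at −2.06 and SDC3 at −2.22 were called lower (adjusted p = 0.0312 and 0.0240). Over all genes, 2.59% were called in each direction in that fit. In both comparisons with IL1Ra 0 genes of the 3 lists were called in either fit.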

How the data were processed

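RNA of 19 constructs was sequenced as 150 bp paired ends, and the authors quantified transcripts of EquCab3.0 with Salmon, collapsed them to genes through tximport and normalised each batch with DESeq2 1.36 in R 4.2.1. The deposited signal values are DESeq2-normalised counts in 1 table per batch. Only 47.4 to 67.7% of low values (under 20) lay within 0.05 of whole reads, so the values could not be turned back into reads for a count test. The precision of low genes is therefore not given as a counting interval.

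Here log2(normalised count + 1) was fitted in R 4.3.3 by limma 3.58.1, using lmFit and eBayes with trend, with p-values adjusted over the 14719 and 16705 genes that passed the filter. The fits were also run on simulated data with planted changes, where only the sign of those changes was checked and no limit was set on false calls. The 9 libraries of the second batch shared 1 estimate of the spread. Samples were grouped by the treatment and batch in the labels, and no 2 libraries were identical. Lines pair the libraries because they share a donor. Deviations from condition means correlated at 0.351 to 0.794 within lines (14 pairs) and −0.625 to 0.288 between lines (38 pairs). Fitting the line as a block was 1 alternative, beside 2 other pseudocounts, 2 filters, 2 scalings, no trend, no fold threshold, 2 conditions in the fit and leaving out each line.

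The members, lists and tests were chosen with earlier results of these data known. Full values are given for members called in any comparison in either fit and for NRP1 and NRP2, and most others by ranges and counts. SEMA3A and SEMA7A, and SEMA3C in part, are also given by line, chosen after their values were seen. All 31 names matched a RefSeq gene table of another horse assembly, which was used for gene order only. Counting was by transcript, and reads shared between near-identical copies were apportioned by the authors' tool. Of the Schwann or nerve markers, 1 gene is not reported here and was left out of its sums.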

Additional observations from a re-analysis of the deposited data

Results flagged for a closer look

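A library far from the others of its condition was looked for in 54 sets of 5 values in the first batch, and 4 were found, where chance gives about 1 in 20. NRP1 was at 8937 normalised counts in the control of line 1, with the nearest control at 2950. SEMA5A was at 35.0 in the control of line 2, with the nearest at 19.6. SEMA3A was at 29.2 in the IL-1β library of line 3, with the nearest at 356, and the control of that line was also the lowest. SEMA4D was at 2.43 in the IL-1β library of line 1, with the nearest at 16.2. No cause was tested for any of these values.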

How the results depend on the processing

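In the first batch 8 members were called in the fit as reported, 9 with the tenocyte line as a block, 7 without trend, 6 to 7 without one line and 11 at the adjusted p alone. In the same order, calls over all genes numbered 1885, 2386, 1860, 1374 to 1729 and 4078. In the second batch the count for IL-1β against control rose from 0 to 5 with the line as a block and was 0 to 1 without one line. Both counts with IL1Ra were 0 under every alternative run. Of 635 values of the 12 members given in full, 612 kept their direction and their side of the threshold, 7 gained and 7 lost a call, and 9 changed sign. The losses were those of SEMA3F and SEMA3B given above, with SEMA3F also at an adjusted p of 0.0566 without trend. The gains were those with the block and that of SEMA4D without line 6. The line as a block changed no other call. The changes of sign were all without one line. Against control, IL-1β + IL1Ra then gave PLXNA4 −1.68 to 0.084, SEMA3B −1.17 to 0.33 and SEMA6D −0.22 to 0.77. Against IL-1β it gave PLXNA2 −0.37 to 0.64 (−0.010 without line 8), PLXNA4 −0.40 to 0.56 (−0.10 without line 8), PLXNC1 −1.10 to 0.11 and SEMA3B −0.20 to 0.59. The cause was not tested. Over all genes, calls for IL-1β against control in the second batch numbered 57 as reported, 865 with the block, 34 without trend, 364 without line 6 and 0 without line 7 or 8. Scaling to equal totals moved the median of all genes to −0.19 for IL-1β against control and 0.11 for IL-1β + IL1Ra against IL-1β in the second batch, and none of these 12 members changed sign, while the direction of the other members was not recomputed under other scalings. In the second batch, with 3 lines per condition, SEMA5A at 2.30 and PLXNC1 at 1.57 were not called by limma in either fit. With the block their SE were 0.80 and 0.50 and their adjusted p 0.147 and 0.116. Smaller changes with a smaller SE were called in that fit. NRP1 was at −1.48 (SE 0.20, adjusted p = 0.0116) and PLXNA3 at −1.18 (SE 0.26, adjusted p = 0.0433).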
